A study of Mus musculus with 24 samples.

Results

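Interferon response genes encode the RNA sensors, signalling factors and antiviral effectors that cells make when interferon binds its receptors. The set examined here is 39 genes named by symbol for these functions, and each of the 39 matched 1 of the 48526 rows of the deposited count table. All 39 were among the 15808 genes that passed edgeR's filter on low counts. RNA came from kidney cortex of 24 C57BL/6 mice, and the design crossed diabetes with the drug PMX-53 in 4 groups of 6. The peptide PMX-53 blocks C5aR1, which senses the complement fragment C5a, and the design asks what this inhibition does in diabetic and in non-diabetic kidneys. The non-diabetic vehicle group received citrate (0.5 M) in place of a toxin and drank plain water, and the non-diabetic PMX-53 group received citrate and 2 mg/kg PMX-53 in the water. The diabetic vehicle group received streptozotocin, a toxin of the insulin-producing beta cells, at 55 mg/kg in 5 daily intraperitoneal injections from 6 weeks of age, and drank plain water. The diabetic PMX-53 group received the same injections and 2 mg/kg PMX-53 in the water. All groups were followed for 24 weeks, and no group carries a transgene per the labels. The model is chemical, so any direct action of streptozotocin on the kidney cannot be told apart from diabetes.

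Interferon signalling starts when sensors such as RIG-I detect foreign or misplaced RNA and, through MAVS and interferon regulatory factors, switch on interferon genes. Secreted interferon then binds receptors whose kinases activate STAT transcription factors, and a complex that holds STAT2 and IRF9 binds the interferon-stimulated response element (ISRE) in the promoters of its target genes. In the kidney, tubular, endothelial and immune cells can all express such genes, and a tissue extract does not show which of them did. In such an extract fewer cells of a type and less RNA per cell cannot be told apart.

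The ISRE core is shown first because it is the sequence through which these genes are known to share a regulator. It was searched as GAAA, any 2 bases and GAAA again, on both strands, in RefSeq promoters (GRCm38.p6) that span 250 bases before to 50 after a gene's start. Of the 39 members 28 had a promoter there, and 15 of the 28 (53.6%) held the core, against 3.99% of 27025 genes with a promoter (3.44% of all 32851 promoters, as a gene can have several). The windows below are written 5′ to 3′ on the gene's strand, with matched letters in capitals, overlapping matches merged (a match on the other strand reads TTTC, 2 bases, TTTC). The first 3 belong to members that were higher with diabetes on vehicle, Ifit1 at chr19:34640765-34640833 (plus strand), Ifit3 at chr19:34583353-34583436 (plus strand) and Bst2 at chr8:71537567-71537622 (minus strand). The last 3 belong to members that were not, Isg15 at chr4:156200855-156200916, Oas3 at chr5:120777705-120777754 and Rsad2 at chr12:26456543-26456592 (all minus strand).
Ifit1: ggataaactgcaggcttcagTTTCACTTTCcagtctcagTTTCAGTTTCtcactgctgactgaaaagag
Ifit3: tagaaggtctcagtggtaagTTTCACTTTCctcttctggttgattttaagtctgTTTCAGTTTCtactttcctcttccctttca
Bst2: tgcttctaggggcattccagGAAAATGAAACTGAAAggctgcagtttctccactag
Isg15: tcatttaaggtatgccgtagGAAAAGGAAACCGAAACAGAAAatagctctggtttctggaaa
Oas3: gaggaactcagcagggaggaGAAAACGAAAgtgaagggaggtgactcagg
Rsad2: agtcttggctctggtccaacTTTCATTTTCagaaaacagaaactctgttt
The 6 windows hold 0 bases of annotated exons of their own genes, and exons of other genes were not checked. Of the matched members that rose with diabetes on vehicle 5 of 7 held the core, of those not past the threshold 10 of 19 did, and of those that fell 0 of 2 did. A match of letters describes the promoter and shows no binding. The gamma-activated sequence, searched as TTCNNNGAA, was in 9 of 28 member promoters (32.1%) and in 9.55% of genes with a promoter (8.3% of all promoters).

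The libraries held 10964992 to 22000895 counts, and levels are given as CPM, counts scaled to a common library total. The 7 proximal tubule markers, which define the cortex, summed to 9726 to 17220 CPM per library. Whether the samples of a group were prepared independently beyond their labels is unknown, so p-values measure only how far these 24 samples scatter, which may be partly technical. RNA composition moved with the groups. Mitochondrially encoded genes took 29.5% ± 2.14 of counts with diabetes on vehicle, against 22.6% ± 1.65 in non-diabetic mice on vehicle (SD over 6 libraries each, exact two-sided permutation p = 0.00216, the smallest possible, adjusted p = 0.00866 over 8 tests). Ribosomal RNA genes, a set that includes the mitochondrial ones, still took 28.6% ± 1.90 and 22.6% ± 1.90 of counts in these groups (exact two-sided permutation p = 0.00216, adjusted p = 0.00866). With mitochondrially encoded genes and ribosomal RNA left out, the counts of called members were 10 higher and 3 lower with diabetes on vehicle, and 4 higher and 10 lower with PMX-53 in diabetic mice, as with all genes.

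Members spanned a wide range of levels. Per kilobase of exon in the non-diabetic vehicle group, the highest was Ly6e (a surface protein of the Ly6 family) at 71.8 ± 13.3 CPM per kilobase, followed by Trim25 at 18.6 ± 0.794 and Ifi27 at 9.08 ± 0.428 (SD, n = 6). The spread of Ly6e does not reach that of Trim25, nor that of Trim25 the level of Ifi27. The median member stood at 2.13 CPM per kilobase and the lowest, Oas3, at 0.0984. Oas3 rested on 4 to 24 counts per library and Mx1 on 8 to 25, and Oas3 had the widest standard error of the 39 members with diabetes on vehicle and with PMX-53 in diabetic mice.

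**Figure D1:**
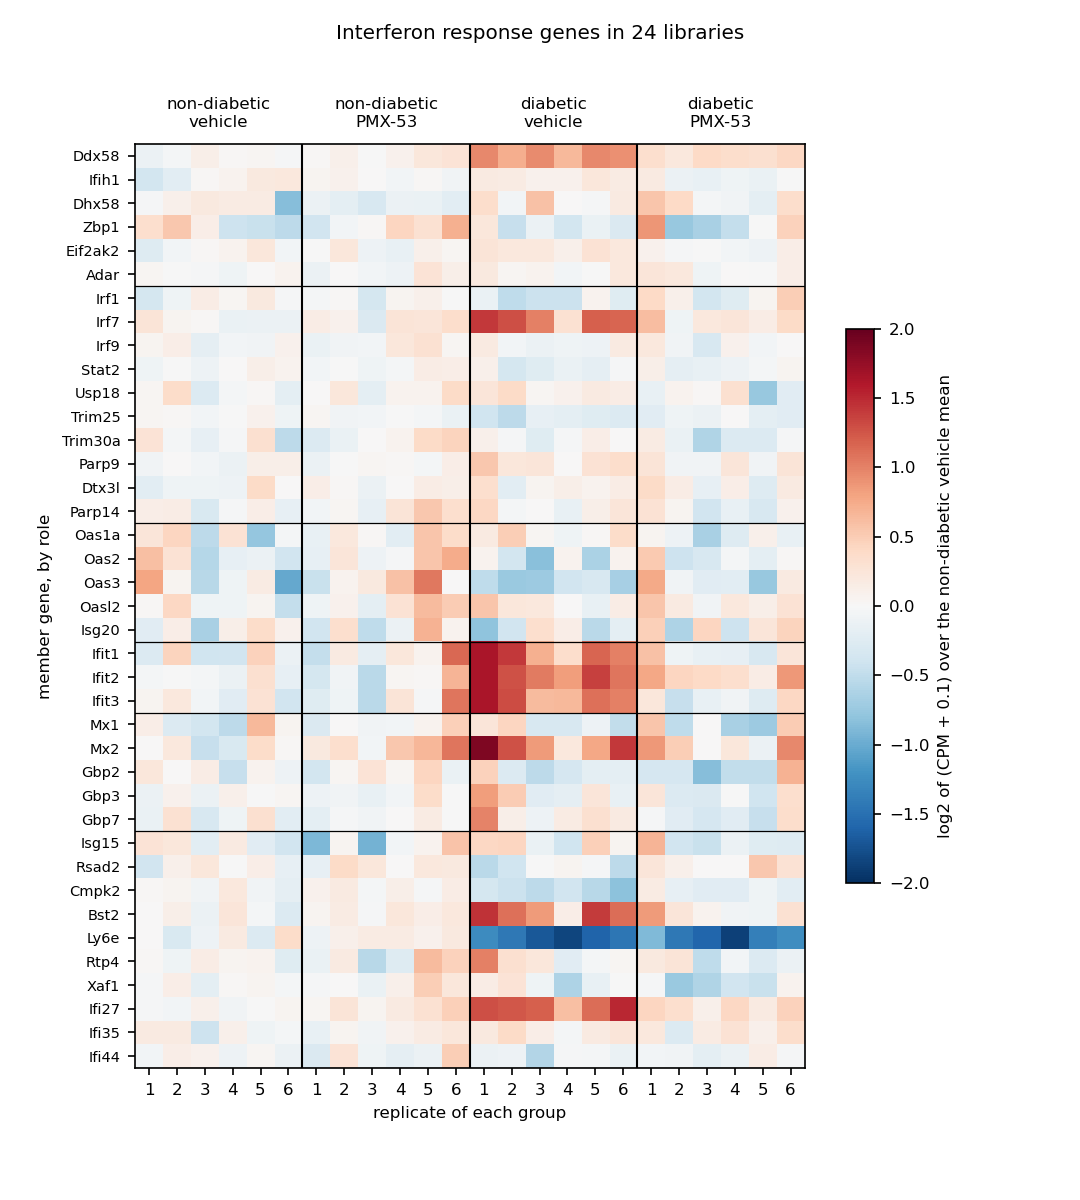
Heat map of the 39 members (rows, by role) in the 24 libraries (columns, by group and replicate), as log2 of CPM plus 0.1 over the non-diabetic vehicle mean, limited to -2 to 2. Ddx58, Irf7, Ifit1, Ifit2, Ifit3, Mx2, Bst2 and Ifi27 are red across most diabetic vehicle libraries, and Ly6e is blue in all diabetic libraries.

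In mice on vehicle, diabetes went with higher RNA of the sensor Ddx58, the transcription factor Irf7, the 3 Ifit genes, Mx2, Bst2 and Ifi27, each raised 1.82-fold to 2.35-fold. Ly6e fell to 0.346 of its level, and Cmpk2 and Trim25 fell by less. The oligoadenylate synthetases, Isg15, Stat2, Irf9 and Irf1 did not pass the threshold. In all, 10 of 39 members were higher and 3 lower (edgeR quasi-likelihood F test, Benjamini-Hochberg adjusted p under 0.05 over 15808 genes), 33.3% of members against 40.3% of all tested genes (20.4% higher and 19.9% lower). The members' share of calls was not above that background. Their median log2 fold change was 0.16, against -0.0014 over all tested genes. The median was 0.0723 without diabetic vehicle replicate 1, 0.10 and 0.0988 without non-diabetic vehicle replicates 3 and 6, and 0.0533 without scaling (all genes -0.0948). In all, 8 members and 934 of 15808 genes passed with an estimate past 2-fold. At an unadjusted p under 0.05 there were 14 members, against 48.3% of genes.

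Among the 6 sensors, 2 rose. Ddx58 (ENSMUSG00000040296, chromosome 4, 40203773 to 40239828), which encodes RIG-I, a cytoplasmic sensor of viral RNA, had a lowest, median and highest level of 19.9, 21.7 and 23.5 CPM in non-diabetic vehicle and of 33.9, 41.3 and 42.4 CPM in diabetic vehicle libraries. The groups did not overlap, and every diabetic library lay well above every non-diabetic one. Its log2 fold change was 0.87 ± 0.06 (SE, edgeR adjusted p = 8.54e-11). Ranges without overlap, diabetic above, were seen in 5 members and in 7.86% of all tested genes, and the reverse in 3 members and 7.02% (14.9% in either direction). Eif2ak2, the gene of the RNA-activated kinase PKR and named after its values were seen, ran from 15.4 to 21.5 CPM and from 19.7 to 22.5 CPM, ranges that overlap, with a log2 fold change of 0.22 ± 0.07 (edgeR adjusted p = 0.0139). Ifih1 (MDA5), Dhx58 (LGP2), Zbp1 and Adar had log2 fold changes of -0.21 to 0.19 and did not pass.

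Of the 10 transcription factors and signalling regulators, 2 rose and 1 fell. Irf7 (ENSMUSG00000025498, chromosome 7, 141262706 to 141266481), a transcription factor that drives type I interferon genes, had a lowest, median and highest level of 5.66, 6.03 and 7.49 CPM in non-diabetic vehicle and of 7.72, 14.2 and 16.7 CPM in diabetic vehicle libraries. The groups do not overlap, but diabetic vehicle replicate 4, the lowest, lies just above the non-diabetic mice while its 5 group members are at 12.6 CPM or more. Irf7 rose by a log2 fold change of 1.11 ± 0.14 (edgeR adjusted p = 7.15e-07). Other factors of the response did not pass, with Irf9 at 0.01 ± 0.09 (adjusted p = 0.952) and Stat2 at -0.13 ± 0.07 (adjusted p = 0.134) on the log2 scale in the edgeR fit. Irf1, a factor induced by interferon gamma, had a log2 fold change of -0.26 ± 0.13 (edgeR adjusted p = 0.111). Stat2 passed without diabetic vehicle replicate 1 (-0.18, adjusted p = 0.0372) and Irf1 without replicate 5 of that group (-0.34, adjusted p = 0.0402). Trim25 (ENSMUSG00000000275, chromosome 11, 88999376 to 89020293), a ubiquitin ligase that activates RIG-I, was lower, from 101 to 113 CPM in non-diabetic and 74.4 to 95.3 CPM in diabetic libraries. Those ranges do not overlap, and the log2 fold change was -0.30 ± 0.05 (edgeR adjusted p = 9.82e-05). Parp9, which works in a complex with Dtx3l, had a log2 fold change of 0.29 ± 0.08 (edgeR adjusted p = 0.00513) with overlapping ranges. Dtx3l had 0.10 ± 0.10 (adjusted p = 0.466).

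All 3 Ifit genes, whose tetratricopeptide proteins bind viral RNA, rose together, and they lie next to each other on chromosome 19. Ifit2 (ENSMUSG00000045932, 34550694 to 34576419) had a lowest, median and highest level of 7.99, 8.69 and 11.2 CPM in non-diabetic vehicle and of 16.1, 20.3 and 28.0 CPM in diabetic vehicle libraries. Its groups do not overlap, with a log2 fold change of 1.24 ± 0.17 (edgeR adjusted p = 2.92e-06). Ifit3 (ENSMUSG00000074896, 34583531 to 34588731) was at 5.3, 6.94 and 8.45 CPM and at 10.9, 14.5 and 21.7 CPM. No diabetic library reached down to the non-diabetic range, and the log2 fold change was 1.11 ± 0.22 (edgeR adjusted p = 0.000411). Ifit1 (ENSMUSG00000034459, 34640871 to 34650009) was at 2.43, 2.82 and 4.48 CPM and at 4.15, 7.0 and 10.3 CPM. Here diabetic vehicle replicate 4, at 4.15 CPM, lies inside the non-diabetic range. The log2 fold change of Ifit1 was 1.13 ± 0.25 (edgeR adjusted p = 0.000841). Ifit3 has a near-identical copy, Ifit3b, between which the counting could split reads, and Ifit3b had a log2 fold change of 1.22 ± 0.20 (edgeR adjusted p = 2.39e-05).

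Of the 5 GTPases 1 rose, and of the 5 oligoadenylate synthetases and RNA-degrading effectors 0 passed. Mx2 (ENSMUSG00000023341, chromosome 16, 97535308 to 97560900), annotated as a polymorphic pseudogene, was at 0.809, 1.15 and 1.52 CPM (lowest, median, highest) and at 1.34, 2.53 and 4.44 CPM. Its groups overlap through diabetic vehicle replicate 4, and the log2 fold change was 1.22 ± 0.26 (edgeR adjusted p = 0.000415). Mx1, its neighbour, had -0.06 ± 0.26 (adjusted p = 0.876), and Gbp2, Gbp3 and Gbp7 had log2 fold changes of -0.15 to 0.32. Oas1a, Oas2, Oas3, Oasl2 and Isg20, whose products make the activator of an antiviral ribonuclease, resemble those enzymes or degrade RNA, ran from -0.67 to 0.19. Their standard errors were 0.15 to 0.33, the widest being that of Oas3, which was at 0.29 to 1.27 CPM in non-diabetic vehicle libraries.

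The 10 other effectors went in opposite directions, with 2 higher and 2 lower. Ifi27 (ENSMUSG00000064215, chromosome 12, 103434211 to 103440239), a small interferon-induced membrane protein, was at 12.6, 13.1 and 14.3 CPM in non-diabetic vehicle and at 20.2, 31.1 and 38.0 CPM in diabetic vehicle libraries. The groups do not overlap, replicate 4 again being the lowest diabetic library, and the log2 fold change was 1.19 ± 0.10 (edgeR adjusted p = 2.47e-09). Bst2 (ENSMUSG00000046718, chromosome 8, 71534255 to 71537456), or tetherin, which holds budding viruses at the cell surface, was at 3.49, 4.17 and 5.01 CPM and at 4.66, 9.26 and 11.7 CPM. Only replicate 4 of the diabetic vehicle libraries overlaps the non-diabetic range, and the log2 fold change was 1.09 ± 0.17 (edgeR adjusted p = 1.4e-05). Ly6e (ENSMUSG00000022587, chromosome 15, 74955051 to 74959905), the most abundant member per length, was at 221, 263 and 351 CPM and at 76.4, 94.3 and 113 CPM. The highest diabetic library lies far under the lowest non-diabetic one, and the log2 fold change was -1.53 ± 0.13 (edgeR adjusted p = 1.09e-08). Cmpk2 (ENSMUSG00000020638, chromosome 12, 26469204 to 26479837), a mitochondrial nucleotide kinase, was at 10.2, 11.3 and 13.3 CPM and at 6.44, 8.22 and 8.94 CPM. It fell without overlap, by 0.52 ± 0.09 on the log2 scale (edgeR adjusted p = 2.59e-05). Isg15, a ubiquitin-like protein and often a leading interferon target, had a log2 fold change of 0.18 ± 0.24 (edgeR adjusted p = 0.585), with 1.16 to 1.87 CPM and 1.15 to 2.19 CPM. Of the 6 diabetic vehicle libraries 3 lay above the highest non-diabetic one and the other 3 within or just under that range. Rsad2, Rtp4, Xaf1, Ifi35 and Ifi44 had log2 fold changes of -0.22 to 0.28 and did not pass.

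**Figure D2:**
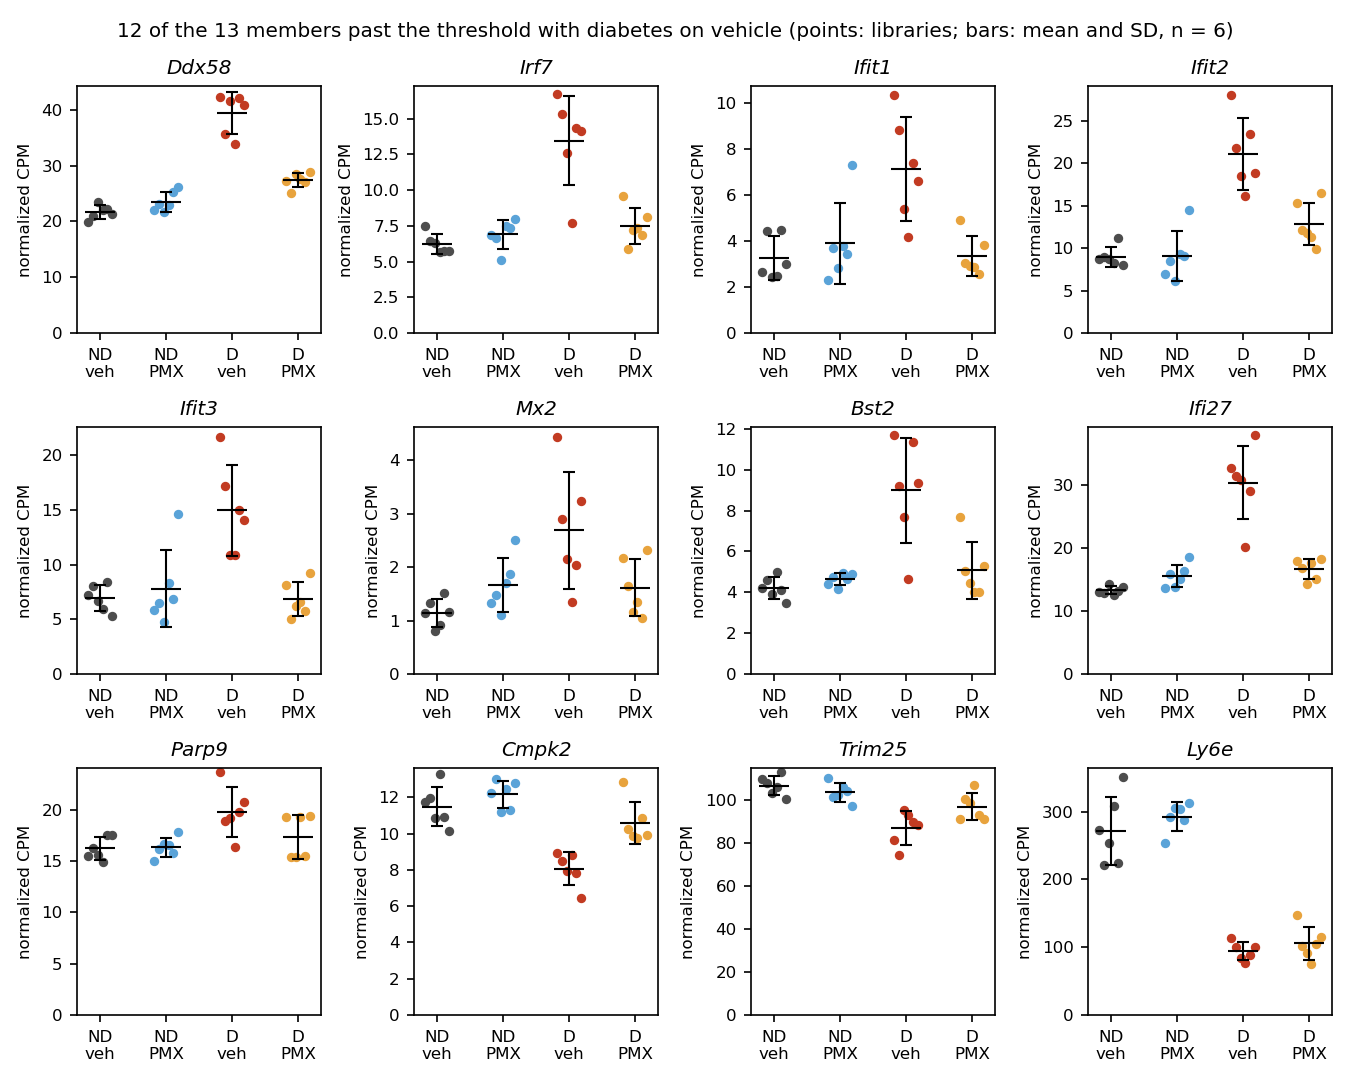
Normalized CPM (vertical axes, from 0) of 12 members in each library (points), with mean and SD of 6 libraries (bars), for non-diabetic (ND) and diabetic (D) mice on vehicle (veh) or PMX-53 (PMX). In the panels of Ddx58, Irf7, Ifit2, Ifit3 and Ifi27 the diabetic vehicle points lie above all non-diabetic vehicle points, and in those of Cmpk2, Trim25 and Ly6e below them.

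Against a 2-fold threshold (edgeR glmTreat), 0 members were higher and 1, Ly6e, was lower with diabetes on vehicle, so the rises differ from 0 but were not shown to exceed 2-fold. That test called 215 of all 15808 genes, so few calls among the members are no trait of theirs. Without scaling beyond library totals 8 members were higher and 3 lower, Parp9 (adjusted p = 0.152) and Eif2ak2 (adjusted p = 0.299) being lost, and the share of higher calls over all genes went from 50.7% to 31.2%. Marker lists of cell types are given for the same groups, beside the 40.3% of all tested genes called with diabetes on vehicle. Whole leukocyte markers (Ptprc, Laptm5, Coro1a, Cd53) summed to 33.7 to 46.0 CPM in non-diabetic vehicle and to 21.4 to 26.0 CPM in diabetic vehicle libraries, with 3 of 4 lower and 0 higher. Endothelial markers summed to 320 to 375 and to 259 to 306 CPM (4 of 7 lower, 0 higher), and 0 genes of either list were at 0 in a whole group. Macrophage and dendritic cell markers summed to 71.6 to 107 and to 67.4 to 87.5 CPM (1 of 10 tested higher, 3 lower). That is 40% called, close to the share over all genes. B and plasma cell markers summed to 75.4 to 171 and to 15.2 to 45.8 CPM (3 of 5 tested lower, 0 higher). Proximal tubule markers summed to 13398 to 16057 and to 9726 to 11942 CPM (2 of 7 higher, 5 lower), and collecting duct markers to 122 to 163 and to 234 to 344 CPM (5 of 5 higher). Of 4 tested plasmacytoid dendritic cell markers 3 were lower (Irf8, Tcf4, Siglech), and the other is the member Bst2. Called were 0 of 5 podocyte, 0 of 3 tested T cell and 0 of 2 tested neutrophil markers. Of 6 fibroblast and pericyte markers 1 was higher and 3 lower, and of 3 thick ascending limb markers 1 was higher and 1 lower. The 1 tested NK cell marker was lower. The part of these cells in the member results was not tested.

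Among diabetic mice, PMX-53 went with lower RNA of the same sensor, transcription factor, Ifit genes, Mx2, Bst2 and Ifi27, each at 0.457 to 0.695 of its level on vehicle, and with more Cmpk2, Rsad2, Irf1 and Trim25. Ly6e did not pass. In all, 10 of 39 members were lower and 4 higher (edgeR adjusted p under 0.05), 35.9% of members against 27.3% of all tested genes (13.9% higher and 13.5% lower). The members' median log2 fold change was -0.17, against 0.0033 over all tested genes, and it was -0.0976 without diabetic PMX-53 replicate 3 and -0.0996 without diabetic vehicle replicate 1. These values and those for diabetes on vehicle share the 6 diabetic vehicle libraries, which enter with opposite sign, so the 2 sets of changes are not separate evidence. Ranges without overlap were found for 3 members lower and 1 higher, against 4.29% and 3.92% of all tested genes (8.2% in either direction). At an unadjusted p under 0.05 there were 16 members, against 38.3% of genes.

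The sensor Ddx58 was at 25.2, 27.5 and 28.8 CPM (lowest, median, highest) in diabetic PMX-53 libraries, all of them between the non-diabetic and the diabetic vehicle ranges. It fell by 0.52 ± 0.06 on the log2 scale (edgeR adjusted p = 7.83e-07). Eif2ak2 fell by 0.21 ± 0.07 (edgeR adjusted p = 0.0271), with 17.2 to 20.2 CPM, a range that overlaps that of diabetic vehicle. Irf7 was at 5.86, 7.27 and 9.6 CPM, close to its non-diabetic levels, and overlaps diabetic vehicle through replicate 4 of that group. Its log2 fold change was -0.84 ± 0.14 (edgeR adjusted p = 6.7e-05).

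Of the Ifit genes, Ifit3 was at 5.03, 6.42 and 9.27 CPM, below every diabetic vehicle library, with a log2 fold change of -1.13 ± 0.22 (edgeR adjusted p = 0.000681). Ifit1 was at 2.58, 2.98 and 4.89 CPM and changed by -1.09 ± 0.25 (edgeR adjusted p = 0.00214). Ifit2 was at 9.95, 12.0 and 16.5 CPM and changed by -0.72 ± 0.16 (edgeR adjusted p = 0.00174). For Ifit1 and Ifit2 the highest PMX-53 libraries reach into the diabetic vehicle range. Against non-diabetic vehicle, the PMX-53 medians of Ifit1 and Ifit3 lay inside the non-diabetic range, and their highest libraries above it. For Ifit2 only the lowest PMX-53 library lay inside that range, and the others lay above the highest non-diabetic vehicle library (11.2 CPM).

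Ifi27 was at 14.3, 17.3 and 18.3 CPM on PMX-53, below every diabetic vehicle library and above every non-diabetic vehicle library, with a log2 fold change of -0.87 ± 0.10 (edgeR adjusted p = 9.84e-07). Bst2 was at 3.99, 4.75 and 7.68 CPM and changed by -0.83 ± 0.17 (edgeR adjusted p = 0.000561), with replicate 1 apart from the other 5 libraries. Mx2 was at 1.04, 1.5 and 2.32 CPM and changed by -0.75 ± 0.24 (edgeR adjusted p = 0.0226), with overlap. Gbp7, a guanylate-binding GTPase, was at 8.11 to 14.4 CPM against 10.5 to 22.6 CPM, with a log2 fold change of -0.47 ± 0.16 (edgeR adjusted p = 0.0283), lower than the vehicle mean in 5 of 6 libraries. Without diabetic vehicle replicate 1, which held the 22.6 CPM, Gbp7 changed by -0.29 (adjusted p = 0.0943).

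Cmpk2 rose to 9.77, 10.1 and 12.8 CPM on PMX-53, above every diabetic vehicle library, by 0.40 ± 0.09 on the log2 scale (edgeR adjusted p = 0.00109). Its neighbour Rsad2 (ENSMUSG00000020641, chromosome 12, 26442746 to 26456452), the gene of the antiviral enzyme viperin, was at 16.0, 20.2 and 24.3 CPM on vehicle and at 23.4, 26.3 and 33.9 CPM on PMX-53. The Rsad2 ranges overlap, and the log2 fold change was 0.43 ± 0.12 (edgeR adjusted p = 0.0102). Irf1 changed by 0.36 ± 0.13 (edgeR adjusted p = 0.0362), above the diabetic vehicle mean in 5 of 6 libraries, with ranges that overlap. Trim25 changed by 0.16 ± 0.05 (edgeR adjusted p = 0.0322). The rule for named genes leaves Trim25 out here, and it was named after its values were seen. Ly6e had 0.17 ± 0.13 (edgeR adjusted p = 0.366) and kept to 74.7 to 148 CPM, under all non-diabetic libraries. Isg15, Irf9 and Stat2 had log2 fold changes of -0.26 ± 0.24, -0.02 ± 0.09 and 0.09 ± 0.07 (edgeR adjusted p of 0.473, 0.874 and 0.380). The 25 members that did not pass ran from -0.36 to 0.66.

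The calls of Mx2, Eif2ak2, Gbp7, Trim25 and Irf1 in diabetic mice were marginal, with adjusted p of up to 0.0824, 0.466, 0.114, 0.141 and 0.115 in 33 other settings, and each was lost on leaving out single libraries. Mx2 was lost without diabetic PMX-53 replicates 3 or 5 or diabetic vehicle replicates 1 or 6 (adjusted p up to 0.0824), Eif2ak2 without 2, 4 or 5 of the former or 1 or 5 of the latter (up to 0.0649), and Gbp7 without 2, 3, 4 or 5 or without 1 (up to 0.0943). Trim25 was lost without diabetic PMX-53 replicates 2, 3 or 4, diabetic vehicle replicates 1 or 2 or non-diabetic PMX-53 replicate 3 (up to 0.141), and Irf1 without diabetic PMX-53 replicates 1, 2 or 6 or diabetic vehicle replicates 2, 3, 4 or 6 (up to 0.105). The other 9 stayed past the threshold in all of these settings except the test against 2-fold, where 0 members passed in either direction. The test against 2-fold called 41 of all 15808 genes here. Without diabetic PMX-53 replicate 2, or without diabetic vehicle replicate 2, the members called higher were 2. Over all genes 3688 and 3507 were then called in either direction, against 4317 with all libraries. Without scaling beyond library totals 4 members were higher and 7 lower, all genes shifted by a median of 0.12 in log2, and 79.5% of the calls over all genes were higher against 50.7%. The members' median was then -0.05.

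Other RNAs separated the diabetic vehicle libraries from the rest. Nnt, which encodes a mitochondrial transhydrogenase, ran from 242 to 272 CPM in them, against 101 to 121 CPM elsewhere, and Wdfy1 at 66.6 to 79.6 against 26.1 to 33.2 CPM. Ide, the gene of insulin-degrading enzyme, was at 62.2 to 76.5 against 111 to 169 CPM. The values for diabetes on vehicle, for PMX-53 in diabetic mice and for the interaction all rest on these 6 mice, so for members with the same pattern an effect of diabetes or of PMX-53 and some other trait of these mice cannot be told apart. The labels name C57BL/6 with no substrain, and whether all groups were of 1 substrain was not tested. In the diabetic PMX-53 libraries leukocyte markers summed to 27.2 to 42.6 CPM (2 of 4 higher, 0 lower) and endothelial markers to 302 to 369 CPM (4 of 7 higher, 0 lower), both above diabetic vehicle on average. Over all tested genes 27.3% were called. Higher were 5 of 6 fibroblast and pericyte, 4 of 5 podocyte, 4 of 5 tested B and plasma cell and 3 of 7 proximal tubule markers. Also higher were 2 of 10 tested macrophage and dendritic, 1 of 3 tested T cell and 1 of 1 tested NK cell markers, with 0 lower in all these lists. Collecting duct had 1 of 5 higher and 1 lower, plasmacytoid dendritic cells 3 of 4 tested higher and 1 lower. Thick ascending limb had 1 of 3 lower and neutrophils 0 of 2 called. Mitochondrially encoded genes took 25.8% ± 2.56 of counts in diabetic PMX-53 libraries (exact permutation p = 0.0260, adjusted p = 0.0519). The part of these shifts in the member results was not tested.

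**Figure D3:**
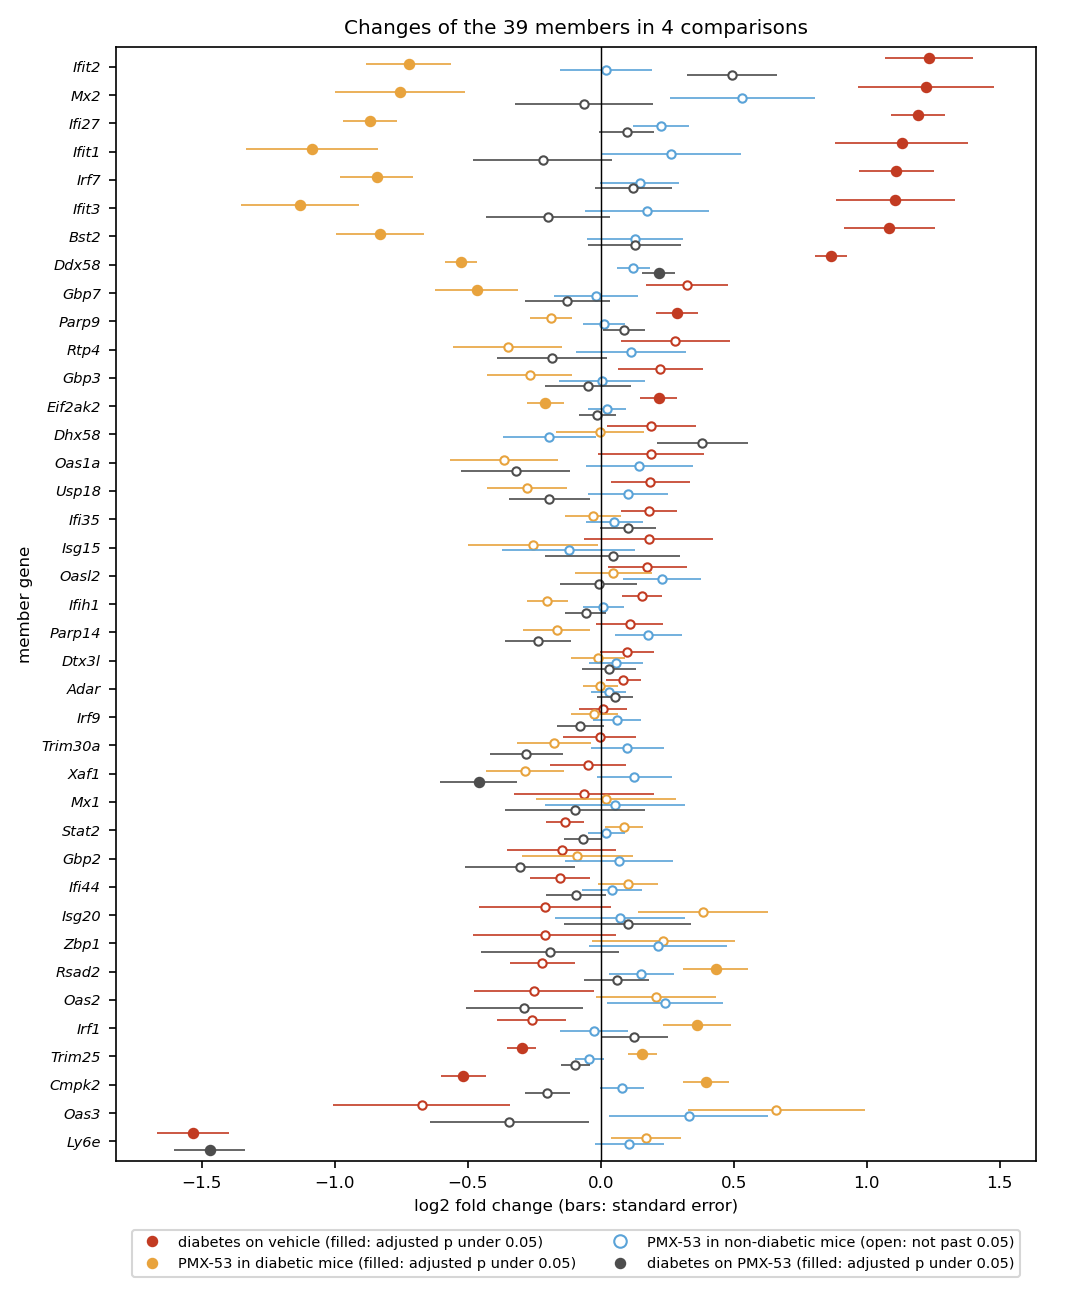
Log2 fold change with its standard error (horizontal) of each of the 39 members (vertical, ordered by the change with diabetes on vehicle) in 4 comparisons by colour, filled where the edgeR adjusted p is under 0.05. The 8 members at the top are filled right of 0 with diabetes on vehicle and left of 0 with PMX-53 in diabetic mice, comparisons that share the diabetic vehicle libraries, and Ly6e is filled left of 0 in both diabetes comparisons.

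In non-diabetic mice 0 members and 0 of the 15808 genes passed the threshold with PMX-53 (0 of 39 members and 0.0% of genes called in edgeR, with 0 calls in DESeq2 and in limma voom). At an unadjusted p under 0.05 there was 1 member, Ifi27 (0.23 ± 0.11, edgeR adjusted p = 0.673), against 7.22% of all tested genes. Fold changes of the members ran from -0.19 to 0.53 on the log2 scale. Their median was 0.0804, and 0.14, 0.0421 and 0.0348 without non-diabetic PMX-53 replicates 1, 5 and 6. Ranges without overlap were found for 0 members and 0.443% of all genes (0.221% in each direction). Irf7 was at 5.09 to 8.01 CPM with a log2 fold change of 0.15 ± 0.15 (edgeR adjusted p = 0.902), and Ddx58 at 21.7 to 26.2 CPM with 0.12 ± 0.06 (adjusted p = 0.714). Ifit1 ran from 2.29 to 3.8 CPM in 5 libraries and stood at 7.3 CPM in replicate 6, with a log2 fold change of 0.26 ± 0.26 (edgeR adjusted p = 0.902). The same replicate 6 was the highest of its group for Ifit2 and Ifit3, at 14.4 and 14.7 CPM. Isg15 had -0.12 ± 0.25, Irf9 0.06 ± 0.09, Stat2 0.02 ± 0.07 and Irf1 -0.02 ± 0.13 (edgeR adjusted p of 0.963, 0.936, 0.982 and 0.990).

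Between the 2 groups on PMX-53, Ly6e and Xaf1 were lower and Ddx58 slightly higher in diabetic mice, 1 member higher and 2 lower against 10% of all tested genes called (5.52% higher and 4.52% lower, edgeR adjusted p under 0.05). Ly6e was at 254, 298 and 312 CPM in non-diabetic and at 74.7, 103 and 148 CPM in diabetic libraries. The ranges are far apart, with a log2 fold change of -1.47 ± 0.13 (edgeR adjusted p = 1.71e-07), and Ly6e was the 1 member whose ranges did not overlap (6% of all genes, 2.97% higher and 3.03% lower). Ddx58 changed by 0.22 ± 0.06 (edgeR adjusted p = 0.0228) with overlap. Xaf1, which binds an inhibitor of apoptosis, was at 4.05 to 6.33 and at 2.64 to 4.71 CPM, with a log2 fold change of -0.46 ± 0.15 (edgeR adjusted p = 0.0415). The calls of Ddx58 and Xaf1 were lost on leaving out single libraries, Ddx58 without non-diabetic PMX-53 replicates 1, 3 or 4 or diabetic PMX-53 replicate 6, and Xaf1 without replicates 2, 4, 5 or 6 of the former group or 2, 3, 4 or 5 of the latter (adjusted p up to 0.0651 and 0.116). Ifit2 had 0.49 ± 0.17 (edgeR adjusted p = 0.0656). It was above the non-diabetic PMX-53 mean in 6 of 6 diabetic PMX-53 libraries, but the ranges overlap (6.14 to 14.4 and 9.95 to 16.5 CPM). Irf7 had 0.12 ± 0.14 and Ifit1 -0.22 ± 0.26 (edgeR adjusted p of 0.649 and 0.657), Isg15 0.04 ± 0.25 and Irf1 0.13 ± 0.13 (0.941 and 0.584), and Irf9 -0.08 ± 0.09 and Stat2 -0.07 ± 0.07 (0.645 and 0.607). The median over members was -0.0668. It turned to 0.02 without non-diabetic PMX-53 replicate 6, was -0.0423 without replicate 5 of that group, and ran from -0.12 to -0.0377 without diabetic PMX-53 replicates 1, 2, 3 or 5. In all, 6 members and 24.4% of genes had an unadjusted p under 0.05.

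The interaction subtracts the PMX-53 log2 fold change of non-diabetic mice from that of diabetic mice. It passed the threshold below 0 for 8 members and above 0 for 0 (the estimate was below 0 for 28 and above 0 for 11), against 9.42% of all tested genes called (4.66% above and 4.76% below). At an unadjusted p under 0.05 there were 12 members, against 24% of genes. It was -1.1 ± 0.15 for Ifi27 and -0.65 ± 0.09 for Ddx58 (edgeR adjusted p = 5.52e-05 for both) and -0.99 ± 0.20 for Irf7 (adjusted p = 0.00297). For Ifit3, Bst2, Ifit1 and Mx2 it was -1.31 ± 0.32, -0.96 ± 0.24, -1.35 ± 0.36 and -1.29 ± 0.37 (edgeR adjusted p of 0.0139, 0.0144, 0.0208 and 0.0264). These are members that rose with diabetes on vehicle, and the interaction uses the same diabetic vehicle libraries. Ifit2 had -0.74 ± 0.24 (edgeR adjusted p = 0.0494), a call lost in 20 of 32 other settings, with adjusted p up to 0.135, 17 of them the omission of 1 library (any but diabetic vehicle replicates 3 and 4, diabetic PMX-53 replicates 1 and 6, non-diabetic vehicle replicate 5 and non-diabetic PMX-53 replicates 1 and 3). Ifit1 lost its call without the filter on low counts (adjusted p = 0.0536), and Mx2 without non-diabetic PMX-53 replicate 6 (-1.13, adjusted p = 0.0550). The interaction of Ly6e was 0.06 ± 0.19 (edgeR adjusted p = 0.880), so its fall with diabetes was not shown to differ between vehicle and PMX-53. Irf9, Stat2, Irf1 and Isg15 had -0.08 ± 0.13, 0.07 ± 0.10, 0.39 ± 0.18 and -0.14 ± 0.35 (edgeR adjusted p of 0.738, 0.739, 0.188 and 0.862).

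Within groups, single libraries led or trailed many members at once. Diabetic vehicle replicate 1 was the highest of its group for 20 of 39 members (51.3%, against 17.8% of all tested genes), among them Ifit1, Ifit2, Ifit3, Mx2, Irf7 and Bst2. Replicate 4 of that group was the lowest for 18 members (46.2%, against 20.8%). In diabetic PMX-53 mice replicate 1 was highest for 20 members (51.3%, against 15.8%) and replicate 6 for 13 (33.3%, against 20.6%). In non-diabetic PMX-53 mice replicates 5 and 6 were highest for 15 and 17 members (38.5% and 43.6%, against 18.1% and 20.3%). Replicates 1 and 3 of that group were lowest for 16 and 19 (41% and 48.7%, against 19.8% and 15.5%). The members share a library and are not independent, so these counts describe 24 mice. With each library left out in turn, 10 to 11 members were higher with diabetes on vehicle and 7 to 13 lower with PMX-53 in diabetic mice. Calls over all genes, in either direction, ran from 5729 to 6796 and from 3507 to 4841.

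**Figure D4:**
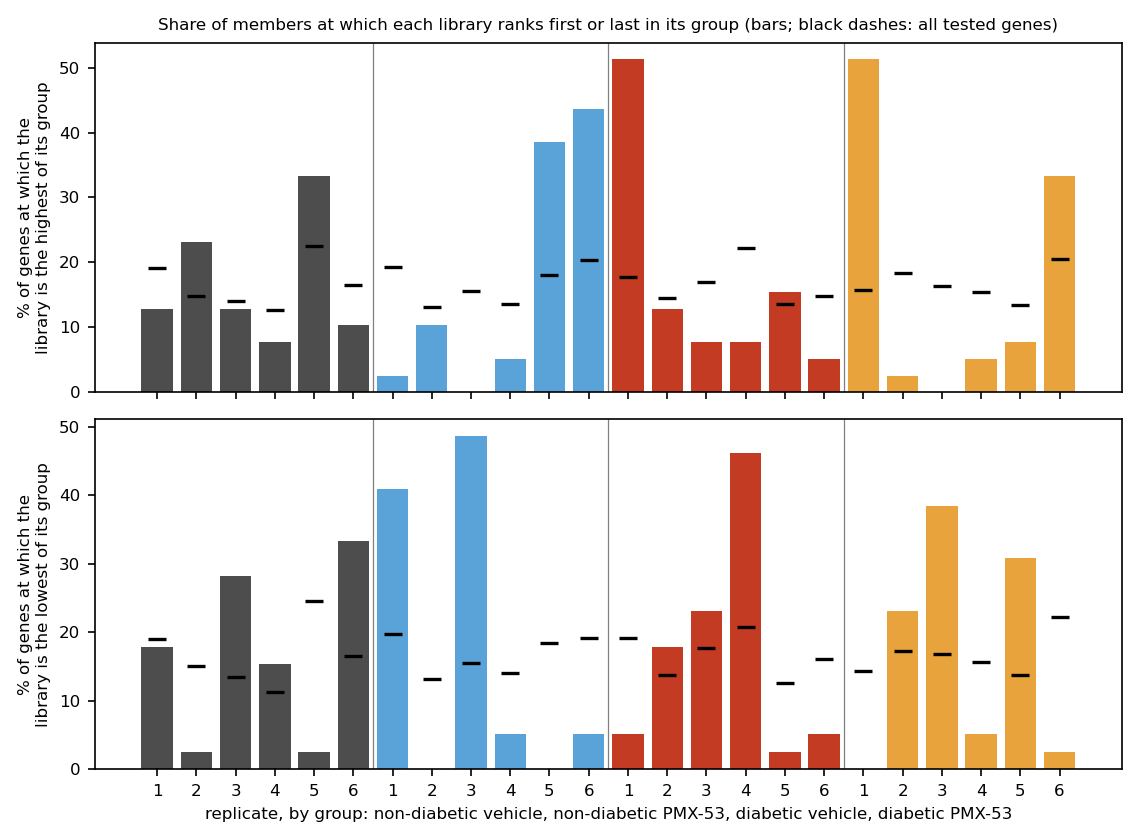
Percent of the 39 members (bars) and of all tested genes (black dashes) at which each library is the highest (top) or the lowest (bottom) of its group of 6, by replicate and group. Diabetic vehicle replicate 1 and diabetic PMX-53 replicate 1 stand at 51.3% in the top panel against 17.8% and 15.8% of all genes.

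The genes around the members in the pathway gave no uniform shift. The 21 interferon ligand genes were too scarce to test, 10 of them without a count in any library and the most abundant, Ifng, with 5 counts over 24 libraries. A count of 0 allows 3 counts, or 0.136 to 0.274 CPM by library (counting error only). Of 13 tested receptors and kinases 2 were higher and 1 lower with diabetes on vehicle (23.1%, against 40.3% of all genes), Stat3 at 0.65 ± 0.13, Ifnlr1 at 0.26 ± 0.09 and Il10rb at -0.37 ± 0.08 (edgeR adjusted p of 0.000334, 0.0272 and 0.000944). The receptor genes Ifnar1, Ifnar2 and Ifngr1 had -0.11 ± 0.05, -0.16 ± 0.08 and 0.18 ± 0.08 (adjusted p of 0.0593, 0.123 and 0.0681). With PMX-53 in diabetic mice 1 of the 13 was higher (Ifnar2, 0.23 ± 0.08, edgeR adjusted p = 0.0338) and 4 were lower (38.5% called, against 27.3% of all genes), Stat3 at -0.51 ± 0.13, Jak2 at -0.19 ± 0.06, Ifngr1 at -0.27 ± 0.08 and Ifnlr1 at -0.26 ± 0.09 (edgeR adjusted p of 0.00499, 0.013, 0.0138 and 0.0389).

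Among 15 tested genes that act upstream of interferon, 3 were higher and 3 lower with diabetes on vehicle (40%, against 40.3% of all genes). Irf5, a transcription factor of myeloid cells, fell by 1.06 ± 0.14 on the log2 scale and Irf3, which starts interferon transcription, by 0.30 ± 0.06 (edgeR adjusted p of 1.06e-06 and 0.000119). The adaptor genes Traf6 and Mavs, through which RIG-I signals, had 0.23 ± 0.05 and 0.29 ± 0.07 (edgeR adjusted p of 0.000829 and 0.00259). With PMX-53 in diabetic mice 2 were higher and 1 lower (20% called, against 27.3% of all genes), where Irf5 and Irf3 had 0.47 ± 0.14 and 0.19 ± 0.06 and Traf6 -0.24 ± 0.05 (edgeR adjusted p of 0.0168, 0.0110 and 0.00112).

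A list of 75 further interferon-induced genes, 71 of them tested, had 14 higher and 14 lower with diabetes on vehicle and a median log2 fold change of -0.06. That is 39.4% called, close to the 40.3% of all tested genes. Lgals3bp, a secreted glycoprotein, rose by 1.36 ± 0.14 (edgeR adjusted p = 1.88e-07), Xdh (xanthine dehydrogenase) by 0.65 ± 0.09 (1.83e-06) and Tor3a by 0.55 ± 0.09 (1.46e-05), and Ifi203 fell by 0.99 ± 0.13 (8.48e-07). With PMX-53 in diabetic mice 15 were higher and 7 lower (31% called, against 27.3% of all genes), median 0.05. Parp10, Uba7 (the activating enzyme for ISG15) and Sp100 had 0.70 ± 0.09, 0.51 ± 0.08 and 0.46 ± 0.08 there (edgeR adjusted p of 3.19e-06, 3.28e-05 and 0.000211), and Ifit3b -1.07 ± 0.20 (0.000211).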

How the data were processed

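RNA (200 ng, depleted of ribosomal RNA, directional kit) was sequenced from 24 libraries, per the labels' protocols. bcl2fastq 2.20.0.422, STAR and the GRCm38 build are named in the submitters' processing notes. The version of STAR, the annotation, the counter and its strandedness were not given in the sources used here. The deposited values are whole-number read counts per gene, and 0 rows name no gene. Without a known strand setting, 14 members that share exon bases with another gene, and near-identical copies (Ifit3 and Ifit3b, Oas1a and Oas1g, the Gbp genes), are uncertain.

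Counts were filtered (filterByExpr), scaled (TMM) and fitted in edgeR 4.0.16 (R 4.3.3) with robust quasi-likelihood, 1 coefficient per group and 24 libraries, and p-values were adjusted by Benjamini-Hochberg over 15808 genes (threshold 0.05). A standard error is the log2 fold change over the square root of F. Levels are TMM-normalized CPM. Alternatives used limma 3.58.1 and DESeq2 1.42.0. Scripts were checked on simulated counts with 200 of 15808 genes changed per comparison. Of 1.5-fold changes 59.1% (interaction) to 70.8% (diabetes on PMX-53) were recovered, and of 2-fold changes 77.6% to 92.2%. The share of false calls ran from 3.75% (PMX-53 in non-diabetic mice) to 8.86% (PMX-53 in diabetic mice), the latter above the 0.05 threshold. Figures used matplotlib 3.10.9 in Python 3.11.15.

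Members and lists were chosen with earlier results of these data known. Named members are up to 12 per comparison past the threshold with the smallest p, plus Irf7, Irf9, Stat2, Irf1, Isg15 and Ifit1, and up to 4 genes of each other list. Eif2ak2 with diabetes on vehicle, Trim25 with PMX-53 in diabetic mice, and members named with values that did not pass, lie outside this rule, chosen with their values in view. Gene positions come from GENCODE M21 and promoters from RefSeq. Promoters of Dhx58, Zbp1, Usp18, Parp9, Parp14, Oas2, Mx1, Mx2, Ly6e, Rtp4 and Ifi27 were not used. Within groups 0 pairs of libraries were identical, and all 60 pairs differed beyond counting noise (chi-square per degree of freedom of at least 5.21).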

Additional observations from a re-analysis of the deposited data

Results flagged for a closer look

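In 17 of 156 sets of 6 libraries (39 members in 4 groups), 1 library stood far from the other 5, with a gap beyond Dixon's critical value at the 95% level. Chance flags about 1 in 20 such sets, or 7.8 here, and members of 1 library are not independent. In non-diabetic PMX-53 replicate 6, Ifit1 was at 7.30 CPM, Ifit2 at 14.4 and Ifit3 at 14.7, against at most 3.8, 9.24 and 8.31 in the other 5 libraries. Diabetic vehicle replicate 1 was high for Gbp2 (10.4 CPM), Gbp7 (22.6 CPM) and Rtp4 (4.63 CPM). Diabetic PMX-53 replicate 1 was high for Ifih1 (19.7 CPM), Isg15 (2.54 CPM), Cmpk2 (12.8 CPM) and Bst2 (7.68 CPM), and replicate 6 of that group for Gbp2 (12.3 CPM). Non-diabetic vehicle replicate 5 was high for Dtx3l (23 CPM) and Ifit2 (11.2 CPM), and non-diabetic PMX-53 replicate 5 for Gbp3 (6.71 CPM). The 3 low values were Dhx58 in non-diabetic vehicle replicate 6 (1.02 CPM), Irf1 in non-diabetic PMX-53 replicate 3 (10.8 CPM) and Ifi44 in diabetic vehicle replicate 3 (6.22 CPM).

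For 8 members the change with PMX-53 differed between diabetic and non-diabetic mice by the interaction term in edgeR. On the log2 scale the difference was -1.29 for Mx2, -0.99 for Irf7, -1.35 for Ifit1 and -0.65 for Ddx58. For Ifit2, Bst2, Ifi27 and Ifit3 it was -0.74, -0.96, -1.1 and -1.31. The call of Ifit2 was lost in 20 of 32 other settings, and those of Ifit1 and Mx2 in 1 each. All of these values rest on the diabetic vehicle libraries, so an effect of PMX-53 and some other trait of those mice cannot be told apart.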

How the results depend on the processing

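The members' counts were recomputed under 10 other settings and with each of 24 libraries left out. Against a 2-fold threshold (glmTreat) 0 members were higher and 1 lower with diabetes on vehicle, and 0 were higher and 0 lower with PMX-53 in diabetic mice and with diabetes on PMX-53, and 0 interactions were negative. Over all genes that test called 215, 41, 13 and 3 in these comparisons, in that order. With PMX-53 in diabetic mice 2 members were higher without the filter on low counts and in a fit of the compared groups alone. These settings called 3777 and 3580 genes over all, against 4317 in the main fit. With diabetes on PMX-53, 0 were higher and 1 lower without scaling, 0 were higher without the filter, and 2 were higher in DESeq2 and in limma voom. Over all genes 871, 1196, 1755 and 2560 were called in these settings, against 1587 in the main fit. A positive interaction was called for 1 member without scaling and for 1 in limma voom (1336 and 2222 genes called over all, against 1489). The cause of these changes was not tested, except that a 2-fold threshold asks for more than a difference from 0. Leaving out 1 library gave 10 to 11 members higher and 3 to 4 lower with diabetes on vehicle, 2 to 4 and 7 to 13 with PMX-53 in diabetic mice, 0 to 2 and 1 to 3 with diabetes on PMX-53, and 6 to 8 negative and 0 positive interactions. Over all genes the same omissions gave 5729 to 6796, 3507 to 4841, 1134 to 1808 and 1022 to 2242 calls in either direction. Under PMX-53 in non-diabetic mice every setting gave 0 members. With diabetes on PMX-53, the 2 higher calls came without non-diabetic PMX-53 replicate 6 or diabetic vehicle replicate 1.

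Reversals touched values near 0 that did not pass in either fit. Without scaling, Irf9 had -0.0785 with diabetes on vehicle, 0.0889 with PMX-53 in diabetic mice and 0.0195 in the interaction. With each library left out, Irf9 ran from -0.0317 to 0.0464 with diabetes on vehicle and from -0.0759 to 0.0344 with PMX-53 in diabetic mice. With PMX-53 in non-diabetic mice, Stat2 ran from -0.0034 to 0.0455, Irf1 from -0.0862 to 0.0322, Isg15 from -0.32 to 0.0107 and Ifit1 from -0.0162 to 0.38. With diabetes on PMX-53, Isg15 ran from -0.19 to 0.24 and Ifit1 from -0.36 to 0.0619, and the interaction of Isg15 from -0.37 to 0.0637. Of 1464 values of named members with a library left out, 1384 kept direction and side of the threshold, and of 537 under other settings 514 did.

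The labels' replicate numbers do not pair the samples: deviations of same-numbered samples correlated at -0.124 to 0.131 (median 0.0103), with 3 of 36 above 0.1. With the replicate block 10 members were higher and 3 lower with diabetes on vehicle, and 4 and 10 with PMX-53 in diabetic mice. The block took the interaction of Ifit2 to -0.72 (adjusted p = 0.0547) leaving 7 negative interactions, and moved no other count. Depth limits the scarce members: Oas3 held 4 to 24 counts per library, and small changes in it were not detectable.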

Other observations

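Neighbouring members did not always move alike. Rsad2 and Cmpk2 are transcribed in opposite directions from starts 12752 bases apart on chromosome 12, and with diabetes on vehicle Cmpk2 fell by 0.52 ± 0.09 on the log2 scale while Rsad2 had -0.22 ± 0.12 (edgeR adjusted p of 2.59e-05 and 0.160). With PMX-53 in diabetic mice both were higher, by 0.40 ± 0.09 and 0.43 ± 0.12. Whether the 2 genes differ in response was not tested. Parp9 and Dtx3l start 681 bases apart on chromosome 16 and their exons share 458 bases on opposite strands, so that without a known strand setting some reads cannot be assigned to 1 of them. Mx1 and Mx2, whose starts lie 72401 bases apart, had -0.06 ± 0.26 and 1.22 ± 0.26 with diabetes on vehicle, a difference that was not tested.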
